A study of Rattus norvegicus with 8 samples.

Results

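A set of 10 genes that carry fatty acids or sterols into, within, out of or toward oxidation in the cell was followed here: Cd36, Olah, Fabp3, Fabp5, Fabp7, Lpl, Scarb1, Apoe, Abca1 and Cpt1a. They were chosen by name with their response to the Sirt6 shRNA already known, so their own differences between the groups are described without a test. The array carries 15 probes named for these 10 genes among 45598 non-control probes, and all 10 are among the 22592 genes tested. Of the genes, 5 have 1 probe and the other 5 have 2.

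The samples are primary hippocampal neurons of Wistar rats prepared at postnatal day 0 to 1. An shRNA against rat Sirt6, which encodes a sirtuin that removes acyl groups from proteins at the cost of NAD, was given to 4 samples, and another 4 received a scrambled control shRNA. Both shRNAs were delivered by lentivirus at 3 days in vitro and a multiplicity of infection of 6. After another 7 days, at 10 days in vitro, RNA was measured on 1-colour Agilent arrays. The series was made to ask what Sirt6 does in the formation of neuronal shape. Only 1 Sirt6 shRNA and 1 scrambled shRNA were compared, so effects of a vector other than on Sirt6 are part of the contrast. Separate cultures are not stated for the 4 replicates of a group, and the p-values therefore rest on a spread that could be technical.

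All levels are log2 processed signals minus the 75th percentile of the same array, so that 0 is that percentile's signal, and a value is comparable between arrays for 1 probe but not between probes. Sirt6 itself was 2.89-fold lower in Sirt6 shRNA neurons (log2 -1.53 ± 0.040 SE, n = 4 per group), at 0.46 to 0.58 in Sirt6 shRNA neurons and 2.02 to 2.10 in scrambled shRNA neurons. Between 60.4% and 65.3% of probes were well above background on each array. All 10 neuronal markers examined were well above background on all 8 arrays. Arrays correlated with r from 0.9954 to 0.9975 within a group and from 0.9912 to 0.9935 between groups. All 8 lay on 1 slide and were scanned once, with the Sirt6 shRNA samples in row 2 and the scrambled samples in row 1. Position on the slide and shRNA cannot be told apart.

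CD36 is a membrane glycoprotein that binds long-chain fatty acids and oxidised lipoproteins and promotes their entry into cells, with known roles in macrophages, endothelium, muscle and fat. Inside the cell, fatty acid-binding proteins carry the fatty acids, and carnitine palmitoyltransferase 1, encoded by Cpt1a in many tissues including astrocytes, admits their acyl groups to mitochondria for oxidation. In the brain, astrocytes carry out most of the oxidation of fatty acids, and they secrete lipoprotein particles built on apolipoprotein E with lipid that the transporter ABCA1 exports.

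The probes behind the largest differences are shown first, because Cd36, its neighbour Cd36l1 and Olah each rest on 1 responding probe. Cd36 has a probe 2403 bases into its transcript, present as 10 spots on each array, and a second probe 8 bases from the transcript's start, present as 1 spot. In build rn4 the files place them at chr4:13525426-13525485 and chr4:13471839-13471898, both on the plus strand and 53.6 kb apart. Cd36l1, a Cd36-like gene that the files list under an older name, has 1 probe at chr4:13601631-13601690 on the plus strand. The Olah probe is given as chr17:86020232-86020643, plus strand, a span of 412 bases for a probe of 60, so its bases come from separate genomic blocks. Which exon or UTR each probe falls in was not analysed here. The first 30 bases are printed for the Cd36 and Cd36l1 probes and all 60 for Olah, in lower case throughout:
Cd36, responding probe: gctcagccgcaactaatgtaacttcagaga
Cd36, probe at the start: tactctctcctcggatggctagctgattac
Cd36l1: gtactgatgtttgtggcttttatgatttca
Olah: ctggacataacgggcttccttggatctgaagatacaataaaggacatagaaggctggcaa

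The longest run of bases that the whole responding Cd36 probe and the Cd36l1 probe share, on either strand, is 6. The probes begin 2403 and 1380 bases into their transcripts, so this run cannot show whether either would pick up the other gene's RNA. Matching of each probe to the other gene's transcript or to the rest of the genome was not analysed here.

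The second Cd36 probe samples the very start of the annotated transcript. RefSeq's Cd36 window in GRCr8 holds 250 bases before the annotated start and 50 after it, and 42 of the probe's bases lie in it, beginning at base 9 of the transcript. The window is printed up to base 30 of the transcript, chr4:18246332-18246611 on the plus strand, with the 22 bases of the probe in capitals:
Cd36 start: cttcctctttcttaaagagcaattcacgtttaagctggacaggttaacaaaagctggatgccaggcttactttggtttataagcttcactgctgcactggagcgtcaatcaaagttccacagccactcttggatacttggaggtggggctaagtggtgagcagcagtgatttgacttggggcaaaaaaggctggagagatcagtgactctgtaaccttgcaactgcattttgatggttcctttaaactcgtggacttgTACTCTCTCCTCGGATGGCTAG

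Of the 10 genes, 7 have such a window in the RefSeq table. The letters AGGTCA, the core element bound by nuclear receptors such as the PPARs, are in neither strand of the Cd36 or the Olah window and are in 16.2% of all 33469 windows. TATAAA occurs once in the Cd36 window, on the minus strand, and in 14.2% of all windows. These are matches of letters in 1 window of 300 bases and say nothing of binding.

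Cd36 had the widest gap between the groups among the 9 of the 10 genes with a probe well above background on all 8 arrays. Its responding probe read -1.28, -1.43, -1.43 and -1.22 in the 4 Sirt6 shRNA samples. In the 4 scrambled shRNA samples it read -3.52, -3.80, -3.76 and -3.60. The lowest Sirt6 shRNA sample stood 2.09 above the highest scrambled sample. The difference was 5.04-fold (log2 2.33 ± 0.078 SE, n = 4 per group).

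The repeated spots show the error within an array. After outlier spots were left out, 36 spots of the Cd36 probe remained in the Sirt6 shRNA samples and 40 in the scrambled samples. Single spots ran from -1.60 to -1.09 in Sirt6 shRNA samples and from -4.02 to -3.39 in scrambled samples, so no spot of one group reached the other. The SD among spots of an array was 0.036 to 0.117 in Sirt6 shRNA samples and 0.142 to 0.184 in scrambled samples, where the probe was dimmer. The averaged processed signal was 131 ± 8.06 in Sirt6 shRNA samples and 25.4 ± 1.88 in scrambled samples (SD, n = 4 each), with all 8 arrays well above background. The second Cd36 probe, at the transcript's start, was not well above background on any of the 8 arrays and gives no fold.

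**Figure D1:**
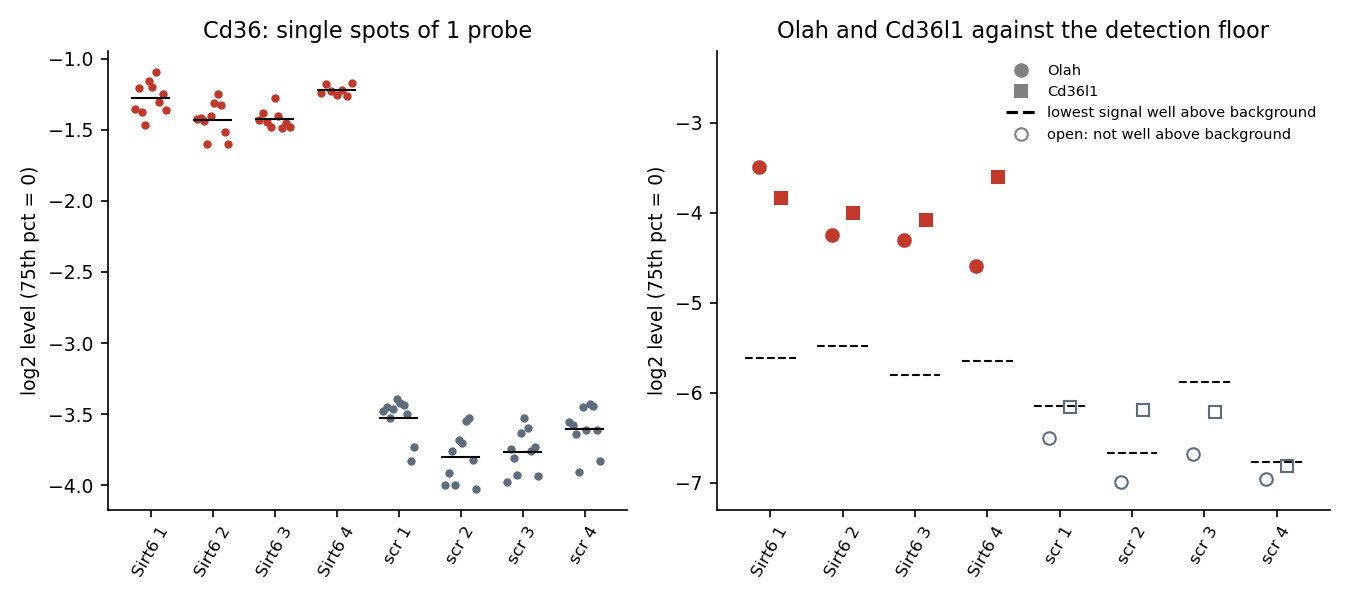
Left, log2 level of each single spot of the responding Cd36 probe on the 4 Sirt6 shRNA arrays and then the 4 scrambled shRNA arrays (scr), with a line at each array's mean; spots run from -1.60 to -1.09 against -4.02 to -3.39. Right, the Olah and Cd36l1 probes on the same arrays, with a dashed line at the lowest signal called well above background on each array and open symbols where the probe was not well above background.

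Cd36l1 was also higher in every Sirt6 shRNA sample. It read -3.84, -4.00, -4.08 and -3.60 in Sirt6 shRNA samples and -6.16, -6.19, -6.22 and -6.82 in scrambled samples. All 4 Sirt6 shRNA values were well above background and none of the 4 scrambled values was, so its fold is a bound. The bound sets the Sirt6 shRNA mean against the scrambled mean with each array raised, where needed, to its lowest signal well above background. Cd36l1 was at least 5.16-fold higher in Sirt6 shRNA neurons. Its probe was kept through the Sirt6 shRNA arrays alone, so no test is given for it.

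Probes around the Cd36 probe in build rn4 were looked up because these 2 genes lie 76.2 kb apart. Between them, an expressed sequence tag 28.7 kb from Cd36 was well above background in 4 of 4 Sirt6 shRNA samples and in 0 of 4 scrambled samples. LOC103692032, 68.2 kb away, differed by 0.13 ± 0.17 in log2 (SE). Beyond Cd36l1, LOC100365047 was higher by 0.72 ± 0.16 at 124 kb, and Sema3c, a secreted guidance protein, differed by 0.19 ± 0.093 at 215 kb (adjusted p = 0.0130 for LOC100365047 and 0.160 for Sema3c in limma over all kept probes). These neighbours were named after their values were seen.

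Olah encodes the thioesterase that releases medium-chain fatty acids from fatty acid synthase, known from mammary gland. Its probe read -3.49, -4.25, -4.30 and -4.59 in Sirt6 shRNA samples. In scrambled samples it read -6.51, -7.00, -6.68 and -6.96. The Sirt6 shRNA values were well above background on 4 of 4 arrays and the scrambled values on 0 of 4. Olah was at least 4.62-fold higher in Sirt6 shRNA neurons. Its probe, too, was kept through the Sirt6 shRNA arrays alone. It varied more among Sirt6 shRNA samples than Cd36 did, with an SD of 0.47 against 0.11 for Cd36 (n = 4 each), and replicate 1 was the highest of them. The Olah probe is 1 spot per array, with a mean signal of 19.4 in these samples. That of Cd36 is 10 averaged spots, with a mean signal of 131. The part of measurement error in this spread was not tested.

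Genes next to Olah on chromosome 17 showed small differences that did not pass. Acbd7, 2.54 kb away by probe position, differed by -0.18 ± 0.15 in log2. Rpp38 at 16.3 kb differed by 0.13 ± 0.046 and the 3 probes of Nmt2 by 0.028 to 0.14. The adjusted p in limma over all kept probes was 0.398 for Acbd7, 0.0680 for Rpp38 and 0.0725 or more for Nmt2.

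Likeness to Cd36 was measured as the root mean square difference of the 8 mean-centred log2 levels. The nearest gene was Tagln, which binds actin in smooth muscle cells, at 0.215, followed by RGD1566307 at 0.232, Cd36l1 at 0.249, Pdlim3 at 0.264 and Olah at 0.347. Nearest to Olah were Cd36 at 0.347 and Cd36l1 at 0.385, then an unnamed transcript (ENSRNOT00000068774) at 0.429, RGD1566307 at 0.433 and Tagln at 0.504. Tagln was 4.40-fold higher in Sirt6 shRNA neurons, Pdlim3 3.67-fold and RGD1566307 5.16-fold. Because 2 groups of arrays set most of this pattern, any gene with a rise of similar size scores as near. The other 8 members were far from Cd36 by this measure, at 1.20 to 1.40.

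Other cell types can express Cd36, and their markers were examined beside it, in the same limma fit. In bulk RNA, fewer cells of a type and less RNA per cell cannot be told apart. Over all genes, 30.4% passed an adjusted p under 0.05, 15.6% higher and 14.8% lower, and the marker counts are to be read beside these shares. Whether the short marker lists differ from all genes was not tested. Of 12 microglia and macrophage markers, 4 were lower in Sirt6 shRNA neurons and 0 higher, or 6 and 0 by unadjusted p under 0.05. Their summed level, on the linear scale relative to the 75th percentile, was 38.7 to 64.9 in Sirt6 shRNA samples and 51.4 to 67.2 in scrambled samples. Sirt6 shRNA replicate 2 gave the 64.9, and without that array 10 of the 12 were lower. The count fell to 1 without Sirt6 shRNA replicate 3 and to 2 without Sirt6 shRNA replicate 1 or 4 or scrambled replicate 2 or 4. Tmem119, a microglial membrane protein, changed by -0.89 ± 0.18 in log2 (limma adjusted p = 0.00816), and P2ry12, a microglial purine receptor, by -0.68 ± 0.20 (0.0365) with overlapping groups. The P2ry12 call was lost with no filter on dim probes. It was also lost with any of 6 arrays left out (adjusted p up to 0.0915), and kept without Sirt6 shRNA replicate 2 or scrambled replicate 1.

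Markers of vessel walls were higher. Of 6 mural markers tested, 4 were higher and 0 lower, with a summed level of 6.28 to 6.77 in Sirt6 shRNA samples and 5.33 to 5.92 in scrambled samples. Most of that sum is Cspg4, the brightest of the 6, at 2.29 to 2.39 in Sirt6 shRNA samples and 2.03 to 2.21 in scrambled samples. Cspg4 is also counted among the oligodendrocyte markers, and its call was lost after median centring and with E1A scaling. Abcc9, a potassium channel subunit of pericytes, changed by 1.18 ± 0.27 (adjusted p = 0.0129), with 2 of 4 scrambled arrays well above background, and Myh11, a smooth muscle myosin, by 0.92 ± 0.089 (0.000272). None of the 8 arrays had the pericyte markers Rgs5 and Kcnj8 well above background. Among 7 fibroblast markers, 4 were higher and 0 lower (by unadjusted p under 0.05 also 0 lower for both lists), with sums of 48.5 to 52.6 in Sirt6 shRNA samples and 41.5 to 43.5 in scrambled samples. Col1a2 changed by 0.36 ± 0.080 (adjusted p = 0.0128) and Col3a1 by 0.33 ± 0.081 (0.0180). The part of these cell types in the Cd36 result was not tested.

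Endothelial markers were mixed, with 1 higher and 1 lower of 5 tested, and sums of 0.946 to 1.12 in Sirt6 shRNA samples and 0.956 to 1.01 in scrambled samples. Kdr, the VEGF receptor, changed by 0.41 ± 0.079 (adjusted p = 0.00615) and Egfl7 by -0.30 ± 0.057 (0.00620), while none of the 8 arrays had Tie1, Esam or Emcn well above background. The same held for the adipocyte markers Adipoq, Plin1 and Retn. Of the 2 adipocyte markers tested 1 was lower, the adrenergic receptor gene Adrb3 at -0.86 ± 0.11 (adjusted p = 0.00118). Both were lower without Sirt6 shRNA replicate 2. With no filter on dim probes, 7 adipocyte markers were tested and 2 were lower. None was called where only probes well above background on all 8 arrays were kept. The sums of the 2 markers were 0.154 to 0.277 in Sirt6 shRNA samples and 0.201 to 0.233 in scrambled samples.

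**Figure D2:**
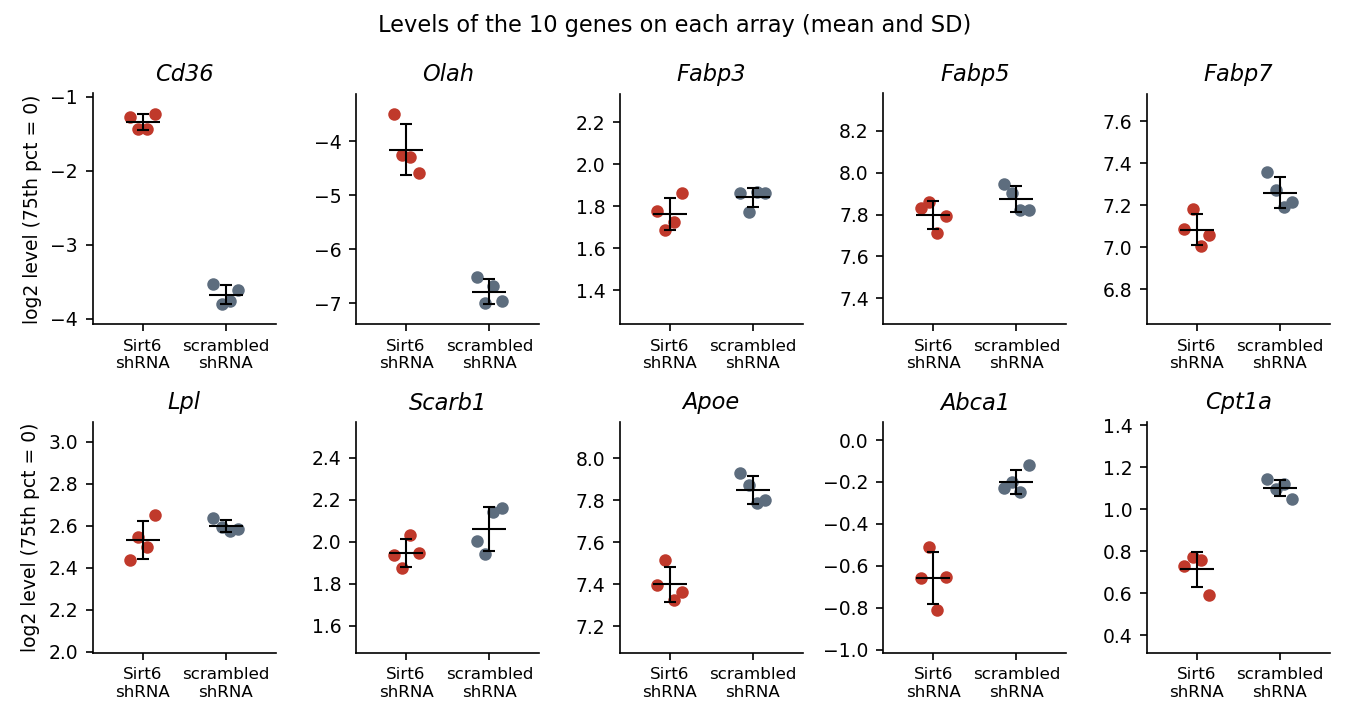
Log2 level of each of the 10 genes (brightest probe, 75th percentile of the array at 0) on the 4 Sirt6 shRNA arrays, left, and the 4 scrambled shRNA arrays, right, in each panel; bars are the mean and SD, and the vertical axis differs between panels. Cd36 and Olah are higher in every Sirt6 shRNA sample, Fabp7, Apoe, Abca1 and Cpt1a are lower in every one, and the other 4 genes overlap.

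The 3 fatty acid-binding proteins differed little. Fabp3, the heart-type form, read 1.78, 1.69, 1.73 and 1.86 in Sirt6 shRNA samples and 1.86, 1.77, 1.87 and 1.86 in scrambled samples. The groups overlapped, with a log2 difference of -0.079 ± 0.048 (SE). Fabp5, the epidermal form, which neurons and glia also express, read 7.83, 7.86, 7.71 and 7.79 in Sirt6 shRNA samples and 7.94, 7.90, 7.82 and 7.82 in scrambled samples. It differed by -0.075 ± 0.049, and its other probe, which shares 16 bases with the first, by -0.033 ± 0.058. Fabp7, the brain-type form of radial glia and astrocytes, has its probe at chr20:36815975-36816034 on the plus strand and read 7.09, 7.18, 7.01 and 7.06 in Sirt6 shRNA samples and 7.36, 7.28, 7.19 and 7.22 in scrambled samples. Its groups did not overlap, though scrambled replicate 3 lay close above Sirt6 shRNA replicate 2. Its difference was -0.18 ± 0.054, and it no longer passed the threshold with E1A scaling, with no filter on dim probes or with any of 6 arrays left out. It still passed without Sirt6 shRNA replicate 2 or scrambled replicate 3.

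Lpl, the lipase that frees fatty acids from lipoproteins, overlapped between the groups. It read 2.44, 2.54, 2.50 and 2.65 in Sirt6 shRNA samples and 2.64, 2.59, 2.57 and 2.59 in scrambled samples, a difference of -0.064 ± 0.051. Its other probe differed by -0.17 ± 0.089. Scarb1, the receptor for high-density lipoprotein, belongs to the same scavenger receptor family as Cd36. It read 1.94, 1.88, 2.03 and 1.94 in Sirt6 shRNA samples and 2.0, 1.94, 2.14 and 2.16 in scrambled samples, differing by -0.11 ± 0.061, or by -0.23 ± 0.074 on its other probe, with overlap on both. Under scaling to the E1A spike-in probes, RNA added in known amount, the small differences of Fabp3 and Fabp5 shrank to -0.0043 and -0.00035 and that of Lpl became 0.010.

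Apoe and Abca1 were lower in Sirt6 shRNA neurons, by similar folds. Apoe, the main apolipoprotein of the brain, has its probe at chr1:79003795-79003854 on the minus strand in rn4 and read 7.39, 7.52, 7.32 and 7.36 in Sirt6 shRNA samples. In scrambled samples it read 7.93, 7.87, 7.79 and 7.80. The groups were separated by 0.27, and the difference was 1.36-fold (log2 -0.45 ± 0.055). Its 40 spots in each group did not overlap either, running from 7.26 to 7.57 in Sirt6 shRNA samples and from 7.71 to 8.01 in scrambled samples, and none was saturated.

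Abca1, which loads lipid onto apolipoproteins, has its brightest probe at chr5:70493613-70493672 on the minus strand and read -0.66, -0.51, -0.81 and -0.65 in Sirt6 shRNA samples. In scrambled samples it read -0.23, -0.20, -0.25 and -0.12. It was 1.37-fold lower (log2 -0.46 ± 0.065). Its other probe, at chr5:70490686-70490745 on the same strand, is listed under another transcript model. That probe read -1.28, -1.20, -1.42 and -1.61 in Sirt6 shRNA samples. It read -0.66, -0.75, -0.56 and -0.54 in scrambled samples and differed by -0.75 ± 0.093. Both probes kept the groups apart, while their fold changes differed.

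The Cpt1a probe, at chr1:205912066-205912125 on the plus strand, read 0.73, 0.77, 0.76 and 0.59 in Sirt6 shRNA samples. In scrambled samples it read 1.14, 1.09, 1.12 and 1.05. It was 1.31-fold lower (log2 -0.39 ± 0.050), with 0.28 between the nearest samples of the groups.

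Of the 10 genes, 6 passed the threshold of an adjusted p under 0.05 that was applied to all genes, where 30.4% of all genes did. Cd36 and Olah were higher, where 15.6% of all genes were, and Fabp7, Apoe, Abca1 and Cpt1a were lower, where 14.8% of all genes were. The same 6 had groups that did not overlap, as did 33.4% of all genes. Since the genes were chosen with this contrast known, nothing is read from these counts. Their median log2 fold change was -0.096, where that of all genes was 0.021.

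**Figure D3:**
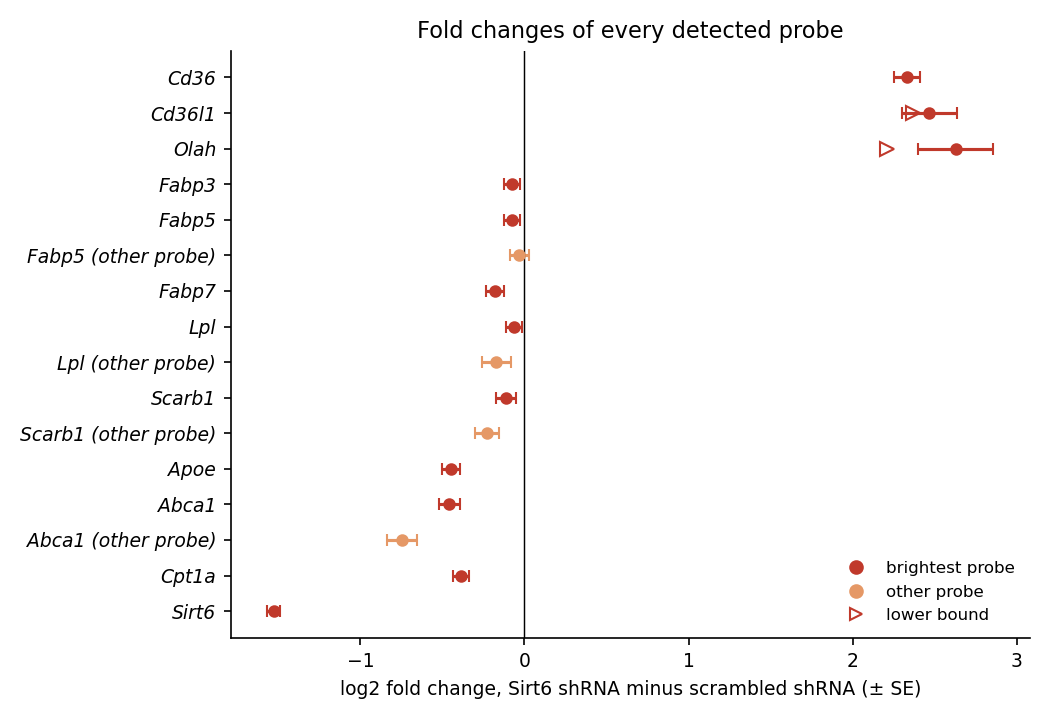
Log2 fold change (Sirt6 shRNA minus scrambled shRNA) with its SE for every probe kept of the 10 genes, Cd36l1 and Sirt6; open triangles are the lower bounds of Olah and Cd36l1. Cd36, Cd36l1 and Olah lie above 2 as fitted, while the other 8 genes of the set lie between -0.46 and -0.064 on their brightest probe.

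Astrocyte markers were lower together with Apoe, Fabp7, Abca1 and Cpt1a. Of 10, 7 were lower and 0 higher by limma, or 8 and 0 by unadjusted p under 0.05, and all 10 were well above background on all arrays. Their summed level was 212 to 236 in Sirt6 shRNA samples and 309 to 338 in scrambled samples, with no overlap. S100b, which binds calcium, was lower at -1.42 ± 0.078 in log2 (adjusted p = 3.06e-05) and Gfap, the intermediate filament of astrocytes, by -0.71 ± 0.069 (0.000288). Neuronal markers were higher for 3 of 10 and lower for 2, and their sums overlapped, at 152 to 169 in Sirt6 shRNA samples and 166 to 167 in scrambled samples. Tubb3, a neuronal tubulin, changed by 0.32 ± 0.058 (adjusted p = 0.00510) and Gad1, which makes GABA, by -0.41 ± 0.047 (0.000603). Oligodendrocyte markers were lower for 2 of 9, Olig1 among them at -0.37 ± 0.044 (0.000757), and higher for 1, Cspg4 at 0.23 ± 0.051 (0.0120). Their sums were 37.8 to 39.5 in Sirt6 shRNA samples and 42.0 to 46.4 in scrambled samples. Olig1, the brightest of the 9, weighs most in these sums. The mean log2 level of the 9 overlapped, at 0.154 to 0.179 in Sirt6 shRNA samples and 0.151 to 0.255 in scrambled samples. The part of these cell types in the lower levels of Apoe, Fabp7, Abca1, Cpt1a and the genes that follow was not tested.

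The remaining lipid genes were taken from 5 lists and read from the same limma fit, adjusted over all genes. Over all genes 30.4% passed, 15.6% higher and 14.8% lower, and the median log2 change was 0.021. By list, 72.0% of uptake, 51.4% of oxidation, 40.0% of lipoprotein, 40.9% of thioesterase and 47.8% of PPAR and LXR genes passed. A value in parentheses after a change is its adjusted p. Among other uptake, binding and activation genes, 8 of 25 tested were higher in Sirt6 shRNA neurons, 10 were lower and 7 did not pass. The 8 and the 72.0% count Cd36l1, whose probe was kept through the Sirt6 shRNA arrays alone. The list's median was 0.051 in log2. The highest fold after that of Cd36l1 was in Pmp2, the fatty acid-binding protein of myelin. Pmp2 was at -2.11 to -1.71 in Sirt6 shRNA samples and -3.33 to -3.04 in scrambled samples, a change of 1.22 ± 0.10 (adjusted p = 0.000131). Cav1, the coat protein of caveolae, which takes part in fatty acid entry and in the membrane placement of CD36, was higher by 0.73 ± 0.070 (0.000267). Crabp2, a carrier of retinoic acid, was higher by 0.60 ± 0.079 (0.00120), and by 0.65 on its other probe.

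Dbi, the acyl-CoA-binding protein, was at 6.34 to 6.71 in Sirt6 shRNA samples and 7.05 to 7.22 in scrambled samples, a change of -0.62 ± 0.079 (adjusted p = 0.000976). The acyl-CoA synthetases Acsl1, Acsl6, Acsbg1 and Acsl3, named after their values were seen, were lower at -0.54, -0.47, -0.56 and -0.20 in log2, with adjusted p of 0.000156, 0.000124, 0.000129 and 0.0318. The Acsl3 call was lost with E1A scaling (adjusted p = 0.423) and with no filter on dim probes. It was also lost with any of 5 arrays left out (adjusted p up to 0.0718), and kept without Sirt6 shRNA replicate 2 or 4 or scrambled replicate 4. Acsl4 at 0.020 (0.839) and Acsl5 at 0.051 (0.458) did not pass. Of the other acyl-CoA-binding proteins, Acbd5 was higher by 0.20 ± 0.056 (0.0281), with its other probe at 0.021, and Acbd3 at -0.10 ± 0.054 (0.190) did not pass. The Acbd5 call was lost after median centring, with E1A scaling (adjusted p = 0.101), with no filter and with its probes averaged. It was also lost with any of 5 arrays left out (adjusted p up to 0.0697). Fabp4, the form of adipocytes and macrophages, was lower at -0.58 ± 0.13 (0.0141). The 5 fatty acid transporters tested went both ways. Slc27a1 was lower at -0.39 ± 0.035 (0.000180), as was Slc27a5 at -0.50 ± 0.11 (0.0114), while Slc27a2 was higher by 0.32 ± 0.073 (0.0129), Slc27a4 by 0.20 ± 0.039 (0.00640) and Slc27a3 by 0.11 ± 0.033 (0.0388). The Slc27a4 call was lost after median centring and after E1A scaling. The Slc27a3 call was lost in those 2 settings (adjusted p = 0.181 with E1A scaling), with no filter and with the replicate block. It was also lost with any of 7 arrays left out (adjusted p up to 0.103), and kept without scrambled replicate 1. Slc27a2, Slc27a3, Slc27a5, Acsl4, Acsl5, Acbd3 and Acbd5 were named after their values were seen.

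Genes of fatty acid oxidation other than Cpt1a were lower or did not pass. Of 35 tested, 18 were lower and 0 higher by limma, or 21 and 1 by unadjusted p under 0.05, and the median log2 change was -0.15. The lower ones lay at most steps of the route. In the carnitine shuttle 2 of 7 were lower, Cpt2, the inner-membrane partner of Cpt1a, at -0.34 ± 0.035 (adjusted p = 0.000343) and Crot, a peroxisomal carnitine acyltransferase, at -0.41 ± 0.037 (0.000188). The paralogs of Cpt1a did not pass: Cpt1b of muscle was at -0.13 ± 0.072 (0.210) and Cpt1c, the brain form of neurons, at -0.045 ± 0.058 (0.592).

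Within mitochondria, 3 of 5 acyl-CoA dehydrogenases were lower, among them the long-chain enzyme Acadl, at 3.56 to 3.70 in Sirt6 shRNA samples and 3.94 to 4.04 in scrambled samples (log2 -0.40 ± 0.046, adjusted p = 0.000578). Of the enzymes of the later steps, 5 of 8 were lower. They included Hadha, the alpha subunit of the trifunctional protein, at -0.43 ± 0.033 (0.000101) with its 3 other probes at -0.64 to -0.43, and Hadh, a hydroxyacyl-CoA dehydrogenase, at -0.40 ± 0.050 (0.000851). In peroxisomes 3 of 8 were lower. Acacb, whose product malonyl-CoA inhibits CPT1, was lower at -0.47 ± 0.13 (0.0292). Its call was lost with E1A scaling (adjusted p = 0.0614), with no filter and with the replicate block. It was also lost without Sirt6 shRNA replicate 1 or scrambled replicate 2, 3 or 4 (adjusted p up to 0.0717).

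The size of this list's count depended on the scaling. With arrays scaled on the E1A spike-ins, 5 of the 35 were lower and 0 higher, with Crot, Acadl, Hadha and Hadh among them. The list's median was then -0.076, where that of all genes was 0.095.

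**Figure D4:**
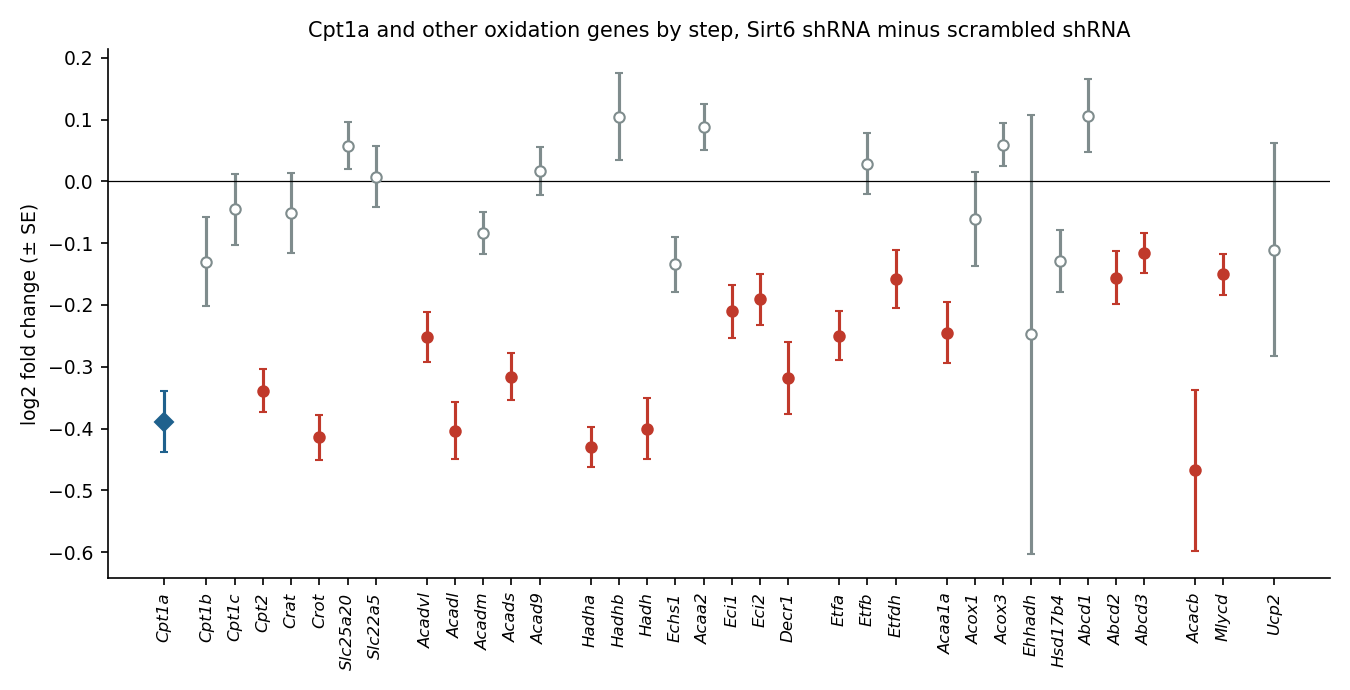
Log2 fold change (Sirt6 shRNA minus scrambled shRNA) with its SE for Cpt1a (diamond) and other oxidation genes, ordered by step from the carnitine shuttle at the left through mitochondrial and peroxisomal oxidation to malonyl-CoA turnover and uncoupling proteins at the right. Filled circles passed an adjusted p under 0.05, and every filled circle lies below 0.

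Among other lipoprotein, lipase and sterol efflux genes, 13 of 35 were lower, 1 was higher and 21 did not pass, with a median of -0.11. Pltp, which transfers phospholipid between lipoproteins, changed by -0.64 ± 0.11 (adjusted p = 0.00346), Npc2, a lysosomal cholesterol carrier, by -0.46 ± 0.051 (0.000483), Mgll, monoacylglycerol lipase, by -0.45 ± 0.055 (0.000802), and Soat1, which esterifies cholesterol, by -0.43 ± 0.061 (0.00167). Of the receptors for apolipoprotein E, Lrp1 was lower at -0.36 ± 0.054 (0.00217), a call lost with E1A scaling (adjusted p = 0.0527). Vldlr was at 0.22 ± 0.071 (0.0514), with its other probe at 0.28, and did not pass. It passed in 6 of 18 alternatives.

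Of the sterol exporters related to Abca1, Abca7 was higher, at -2.06 to -1.76 in Sirt6 shRNA samples and -2.51 to -2.31 in scrambled samples (log2 0.53 ± 0.074, adjusted p = 0.00147). For Abcg1, the brightest of its probes was lower at -0.18 ± 0.041 (0.0125) and the other stood at -0.0087, and its call was lost when its probes were averaged or with E1A scaling. With E1A scaling 7 genes of the list were lower and 1 higher. Without Sirt6 shRNA replicate 2, or with normexp, 3 genes were higher.

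Olah's relatives divided. Of 22 other thioesterase and fatty acid synthase partner genes, 7 were higher, 2 lower and 13 did not pass, with a median of 0.042. The number higher was 4 without scrambled replicate 3, after median centring or with E1A scaling. Fasn, the synthase from which OLAH releases its products, was at 3.08 to 3.26 in Sirt6 shRNA samples and 3.61 to 3.95 in scrambled samples, a change of -0.60 ± 0.087 (adjusted p = 0.00182). Acot1, a cytosolic acyl-CoA thioesterase, was 1.97-fold lower (log2 -0.98 ± 0.084, adjusted p = 0.000170). Acot7, the brain acyl-CoA thioesterase, was higher by 0.41 ± 0.051 (0.000893), as were Acot9 by 0.28 ± 0.045 (0.00287) and Acot4 by 0.29 ± 0.074 (0.0207). Acot4 no longer passed when scrambled replicate 3 was left out (adjusted p = 0.0513), nor after median centring or E1A scaling. Tesc, higher by 0.53 ± 0.052 (0.000283), is a calcium-binding protein and not a thioesterase, despite its place in the list. Acot1 and Acot4 belong to a family of close paralogs whose probes may share signal.

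Cd36, Cpt1a and Abca1 are known targets of PPAR or LXR nuclear receptors. Among 23 other genes of these receptors and their usual targets, 11 were lower, 0 higher and 12 did not pass by limma, or 12 lower and 2 higher by unadjusted p under 0.05, with a median of -0.18, or -0.16 with 1 gene near background at its bound. Plin4, a lipid droplet protein, was at -1.67 to -1.08 in Sirt6 shRNA samples and -0.26 to -0.093 in scrambled samples, 2.53-fold lower (log2 -1.34 ± 0.13, adjusted p = 0.000286). Angptl4, a PPAR target that inhibits lipoprotein lipase, was at 4.04 to 4.14 in Sirt6 shRNA samples and 4.74 to 4.89 in scrambled samples, 1.66-fold lower (log2 -0.73 ± 0.046, adjusted p = 4.81e-05). Srebf1, an LXR target that drives lipid synthesis, was lower at -0.56 ± 0.044 (0.000109) and Lpcat3, which remodels phospholipids, by -0.36 ± 0.038 (0.000396). Cd36 itself was higher. The 11 lower genes are not all targets, since Ppara, Ppard and the coactivator Ppargc1a are among them. Abcg1, another of them, is counted in the lipoprotein list too. The part of these receptors in the Cd36 result was not tested.

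The receptors themselves split as well. Ppara was lower at -0.44 ± 0.053 (adjusted p = 0.000783), with its 2 other probes at -0.45 and -0.35, and its coactivator Ppargc1a by -0.54 ± 0.12 (0.0117; other probe -0.28). Ppard changed by -0.38 ± 0.11 (0.0332) with overlapping groups. Its call was lost with E1A scaling (adjusted p = 0.169), with no filter and with limma's trend and robust options. It was also lost with any of 6 arrays left out (adjusted p up to 0.0792), and kept without Sirt6 shRNA replicate 3 or scrambled replicate 2. Pparg at 0.077 ± 0.12 (0.670), Rxra at 0.00039 ± 0.11 (0.998), Nr1h3 at 0.00060 ± 0.073 (0.997) and Nr1h2 at -0.031 ± 0.031 (0.478) did not pass. With E1A scaling 6 of the 23 were lower and 0 higher.

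**Figure D5:**
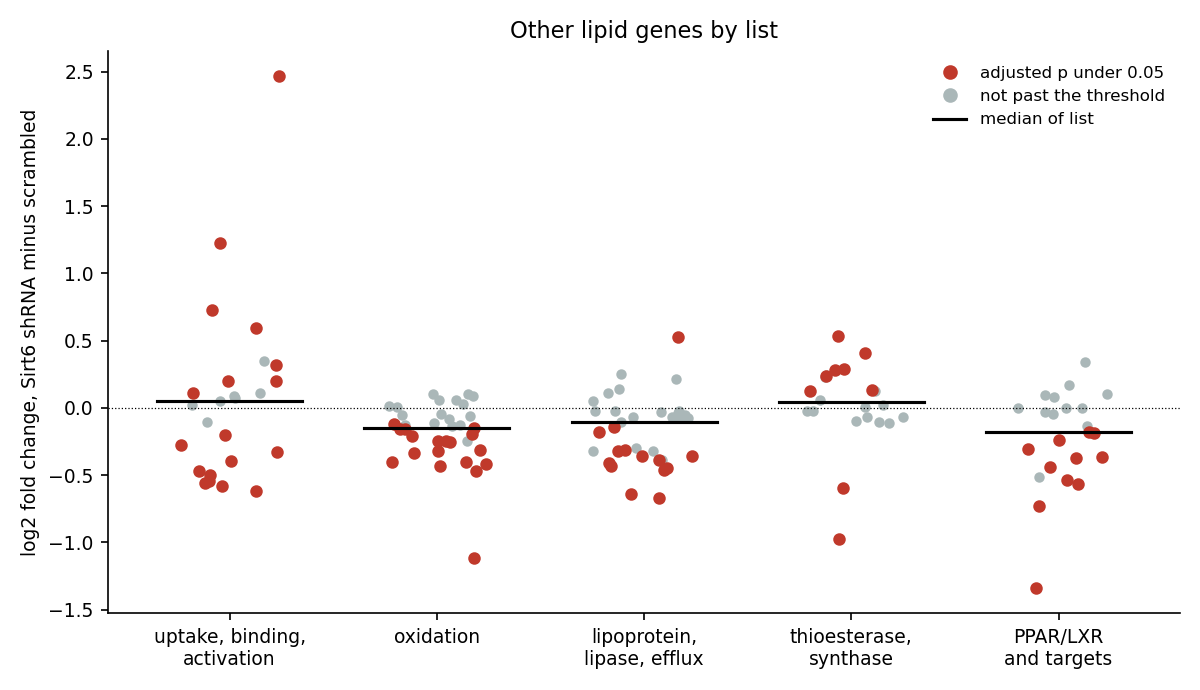
Log2 fold change (Sirt6 shRNA minus scrambled shRNA) of each tested gene in the 5 lists of other lipid genes, with the 10 followed genes left out; red points passed an adjusted p under 0.05 over all 22592 genes and lines are list medians, which run from -0.18 to 0.051. No gene of the oxidation or the PPAR and LXR list passed upward, while 8 genes of the uptake list did, counting Cd36l1, the highest point, whose fitted value rests on background in scrambled samples.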

How the data were processed

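The deposited spot intensity values came from Agilent Feature Extraction 11.5.1.1 (per the file headers, and named in the submitters' notes), background-subtracted and not normalized between arrays. The authors' deposited table of log2 values equals the log2 processed signal minus 1 constant per array (SD of the difference at most 0.0029, column medians -3.70 to -3.59), and was used as an alternative. Control and outlier spots were left out, spots of a probe were averaged as log2, and each array's 75th percentile was subtracted. Probes well above background on at least 4 of 8 arrays were kept. They were named through RefSeq (21102 by systematic name, 2631 by another accession, 5166 by symbol, 352 by older symbol; 16347 kept the file's name), with the brightest probe per gene (22592). The two-sided test was limma's (version 3.58.1, under R 4.3.3; lmFit, then eBayes), with Benjamini-Hochberg adjustment over all genes and a threshold of 0.05, and was tested on simulated data. The number of arrays limits the precision.

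The members, lists and naming rule were chosen with earlier results of these data known. The rule named Sirt6, every member probe, Cd36l1, up to 6 called genes per list with the largest change and no overlap between groups, or, where under 2 qualified, the 2 with the lowest p, a set of receptors, transporters and Cpt1a paralogs, the 5 genes nearest to Cd36 and to Olah, and up to 2 called markers per cell type. Alternatives covered background correction, scaling, filters, probe choice, limma options, the replicate number as a block and each array left out. Of the list genes, 2 were tested and counted but are not reported here.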

Additional observations from a re-analysis of the deposited data

Results flagged for a closer look

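In 11 of 154 groups of 4 arrays (77 probes, each in both groups), the highest or lowest array stood apart by Dixon's criterion, which chance alone meets in about 1 group in 20. Among the members and Cd36l1, Fabp3 was low in scrambled replicate 2, at 1.77 beside 1.86 to 1.87 in the other scrambled arrays, and Cd36l1 was low in scrambled replicate 4, at -6.82 beside -6.22 to -6.16, all of them not well above background.

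Sirt6 shRNA replicate 2 was the high array for 5 genes. Acadl was at 3.7 beside 3.56 to 3.58 in the other Sirt6 shRNA arrays, Pltp at 0.77 beside 0.32 to 0.39, and Plin4 at -1.08 beside -1.67 to -1.59. The microglial genes P2ry12, at -1.81 beside -2.73 to -2.6, and Tmem119, at -1.49 beside -2.22 to -2.11, were high in the same array. Ppargc1a was high in Sirt6 shRNA replicate 1, at -2.14 beside -2.4 to -2.36. Among scrambled arrays, Soat1 was low in replicate 4 at 1.17 beside 1.3 to 1.31, Pparg was low in replicate 4 at -4.79 beside -4.6 to -4.58, and Myh11 was high in replicate 3 at -2.31 beside -2.57 to -2.54.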

How the results depend on the processing

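The members were chosen with this contrast known, so their calls are not counted over the alternatives as support. The Cd36 log2 fold change was 1.15 with normexp background correction, which adds an offset of 50 to every signal, more than the probe's signal in scrambled samples. Scaling on the E1A spike-ins moved counts of called genes to 3268 over all genes (6874 as reported), 5 for oxidation, 8 for lipoprotein and 6 for the PPAR and LXR list. It also moved called markers to 2 for neurons, microglia and fibroblasts, 1 for endothelium and 0 for oligodendrocytes. The share of called genes that were higher was 51.3% as reported, 35.2% after median centring and 64.0% with E1A scaling. With each array left out in turn, called genes ran from 5312 to 6590. The Cd36 log2 fold change ran from 2.29 to 2.38 and the Olah bound from 3.96 to 5.17-fold. The list counts then ran from 15 to 18 for uptake, 14 to 16 for oxidation, 13 to 16 for lipoprotein, 6 to 9 for thioesterase and 9 to 11 for PPAR and LXR genes. Same-numbered arrays of the groups shared deviations with correlations of 0.064, 0.16, 0.13 and 0.033, and only replicates 2 and 3 correlated best with their own number, so the numbers were not taken as pairs. With the replicate number as a block, 6425 genes were called. Probes near background, Olah and Cd36l1 among them, give bounds only. Slide row was confounded with group, and no second shRNA was measured here.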
